A study of Mus musculus with 6 samples.

Results

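The cells described here were the 811 cells that the deposited annotation names Fibroblast and that the separate clustering of fibroblasts placed in its sub-cluster 3, out of 25428 cells in all. They came from cultures of dissociated choroid, the vascular layer behind the retina, with its pigment epithelium (RPE), from male C57BL/6J mice aged 12 to 16 months. Of the 6 samples, 3 came from Dram2 wt/wt mice, the controls, and 3 from Dram2 ko/ko mice, which lack exon 4 of Dram2 in the germline and so in every tissue. Below, these genotypes are written wt/wt and ko/ko. Messenger RNA was counted by unique molecular identifiers (UMIs), which tag each captured molecule once, in droplets with a 3′ protocol. The labels place ko/ko replicate 3 alone in batch 2 and the other 5 samples in batch 1, and they do not state whether each sample was 1 animal, so the tests measure the spread between these samples. The cells numbered 127, 101 and 101 in wt/wt replicates 1 to 3 and 68, 279 and 135 in ko/ko replicates 1 to 3.

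Fibroblasts make and remodel the collagen-rich matrix of connective tissue. Lumican (Lum) and decorin (Dcn) are small leucine-rich proteoglycans that bind collagen fibrils, and matrix Gla protein (Mgp) holds back calcification. In culture, fibroblasts often take up a contractile program with smooth muscle actin, and other fibroblast states secrete chemokines, cytokines and complement regulators.

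The type name and the sub-cluster number crossed in these cells. Of the 12651 Fibroblast cells, 9727 (76.9%) lay in sub-cluster 1 and 811 (6.41%) in sub-cluster 3. Sub-cluster 3 held 3790 cells, of which these Fibroblast cells made up 21.4% and cells named Fibroblast 2 made up 78.2%. Of the 3019 Fibroblast 2 cells, 98.2% were in sub-cluster 3. The question was therefore whether the 811 cells resembled the Fibroblast cells of sub-cluster 1, with which they share a type name, the Fibroblast 2 cells, with which they share a sub-cluster, or neither. Both the names and the sub-clusters were made from the expression of these cells, so differences between the populations are given as levels without a test.

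Levels are in CPM, the UMIs of a gene over all UMIs of the summed cells of 1 population in 1 sample on one common scale, and log2 differences were taken within each sample. The sums held 2694621 to 5114772 UMIs per sample for the Fibroblast cells of sub-cluster 3. Their median cell held 26221 UMIs and 5874 genes, against 27190 UMIs and 5959 genes in Fibroblast sub-cluster 1 and 18394 UMIs and 5003 genes in Fibroblast 2. In each sample the median UMI count was 0.885 to 1.03 times that of Fibroblast sub-cluster 1, 1.23 to 1.57 times that of Fibroblast 2 and 0.543 to 0.616 times the sum of both. ko/ko replicate 1 had the fewest cells and the deepest ones, with a median of 58761.5 UMIs, and ko/ko replicate 2 the most cells and the shallowest, with 17811. Cell identifiers had been replaced by 25428 distinct names, so droplet barcodes shared between libraries could not be counted.

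The 3 fibroblast markers were present at high levels. Lum stood at 639, 596 and 658 CPM in the wt/wt samples and at 576, 553 and 674 CPM in the ko/ko samples. In Fibroblast sub-cluster 1 it was at 39.7 to 56.9 CPM and in Fibroblast 2 at 248 to 307 CPM, so the values of the 3 populations did not overlap. Of the 18 cell groups with 50 or more cells, the Fibroblast cells of sub-cluster 3 had the highest mean level of Lum. Dcn was at 2242 CPM ± 159 (SD, n = 6), close to the 2536 CPM ± 440 of Fibroblast 2, while Fibroblast sub-cluster 1 held 466 CPM ± 46.5. Mgp was at 5858 CPM ± 1184, against 2493 CPM ± 235 in Fibroblast sub-cluster 1 and 668 CPM ± 241 in Fibroblast 2, and only the Fibroblast cells of sub-cluster 7 had a higher mean. Each marker thus had its own order over the 3 populations: Dcn was near Fibroblast 2, and Lum and Mgp were above both.

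**Figure D1:**
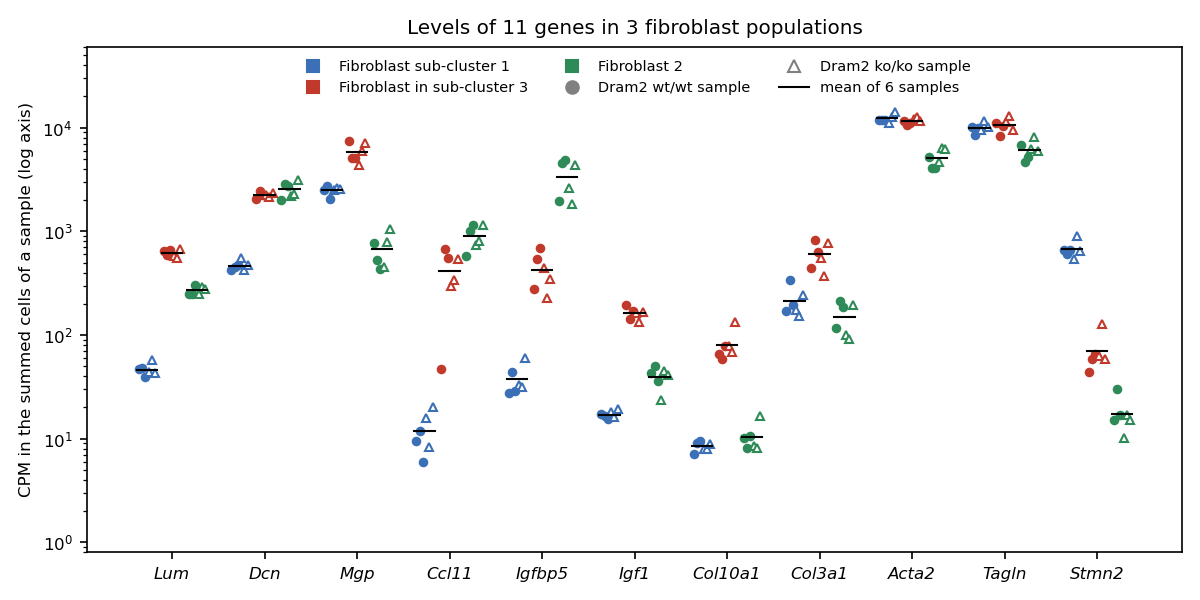
The plot gives the level of 11 genes (CPM, log axis) in the summed cells of each sample, for Fibroblast sub-cluster 1 (blue), Fibroblast cells of sub-cluster 3 (red) and Fibroblast 2 (green), with filled circles for wt/wt samples, open triangles for ko/ko samples and lines for means of 6 samples. Lum, Igf1, Col10a1 and Col3a1 are highest in red, Ccl11, Igfbp5 and Stmn2 lie between blue and green, and Acta2 and Tagln are near blue.

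The share of cells with at least 1 UMI of a marker was then compared. After thinning each cell to 5000 UMIs, Lum was found in 72.0% ± 3.72 (SD, n = 6 samples) of the Fibroblast cells of sub-cluster 3, in 13.5% ± 1.84 of Fibroblast sub-cluster 1 and in 49.3% ± 3.22 of Fibroblast 2. Without thinning the shares were 89.9%, 34.8% and 72.1%. In RPE cells, an epithelium that served as the background for free RNA, Lum was found in 3.07% ± 4.38 of thinned cells, and their median cell held 22905.5 UMIs. Dcn was found in 93.7% ± 2.95 of the thinned Fibroblast cells of sub-cluster 3 and in 10.7% ± 7.12 of RPE cells. Mgp was found in 85.9% (80 to 92.1% over the 6 samples), against 87.1% ± 2.93 in Fibroblast sub-cluster 1 and 47.8% ± 7.93 in Fibroblast 2, but also in 34.5% ± 14.9 of RPE cells. Thinning left out 8 of the 811 cells, 1 of wt/wt and 7 of ko/ko.

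Markers of other cell types were low in the Fibroblast cells of sub-cluster 3. None of the listed RPE, myeloid, melanocyte, Schwann, photoreceptor or T cell genes reached 20 CPM in any of the 3 populations. The 14 RPE genes summed to 6.23 to 11.5 CPM per sample, with 6 of them at 0 in all samples, Rpe65 among them, against 5.63 to 9.43 CPM in Fibroblast sub-cluster 1 and 5.48 to 10.7 CPM in Fibroblast 2. The 10 myeloid genes summed to 11.2 to 25.2 CPM, with 8.12 to 22.5 and 10.7 to 22.5 CPM in these 2 populations, and the 8 Schwann cell genes to 5.98 to 11.5 CPM, with 4.51 to 5.34 and 6.29 to 11.2 CPM. The 8 melanocyte genes summed to 0.196 to 2.69 CPM and the photoreceptor and T cell genes to 0.979 to 3.49 CPM. Of the 10 endothelial genes only Emcn, a surface sialomucin, was above that level, at 616 CPM ± 50.7 against 420 CPM ± 53.8 in Fibroblast sub-cluster 1 and 331 CPM ± 40.3 in Fibroblast 2, while Pecam1, which defines endothelial cells, was at 0.71 CPM. The 8 pericyte genes summed to 93.0 to 184 CPM, with 119 to 173 and 83.0 to 127 CPM in the neighbouring populations. The part of these genes in the differences below was not tested.

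Between populations, a protein-coding gene was counted as higher or lower when its mean log2 difference was at least 1 (2-fold), its sign was the same in all 6 samples and it reached 20 CPM in either population. Against Fibroblast sub-cluster 1, 125 of 6461 genes (1.93%) were higher and 62 (0.96%) were lower in the Fibroblast cells of sub-cluster 3. Against Fibroblast 2, 236 of 6662 genes (3.54%) were higher and 123 (1.85%) were lower. The neighbours differed from each other in more genes, with 281 of 6734 (4.17%) higher and 337 (5%) lower in Fibroblast 2. The median log2 difference over all genes considered was -0.03 against Fibroblast sub-cluster 1 and -0.09 against Fibroblast 2.

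The 10 genes farthest above Fibroblast sub-cluster 1 were Ccl11, Fndc1, Sod3, Lum, Igfbp5, Gzmd, Mmp3, Shisa2, Igf1 and Col10a1. Ccl11, the chemokine eotaxin that attracts eosinophils, was at 47.3, 682 and 559 CPM in the wt/wt samples and at 299, 340 and 536 CPM in the ko/ko samples. Fibroblast sub-cluster 1 held 5.97 to 20.4 CPM of it and Fibroblast 2 held 578 to 1160 CPM. All 6 samples were above Fibroblast sub-cluster 1, but wt/wt replicate 1 was far below the other samples. The mean log2 difference was 4.84 ± 1.47 (SD, n = 6) against Fibroblast sub-cluster 1 and -1.48 ± 1.07 against Fibroblast 2. Ccl11 was found in 32.0% ± 4.10 of the cells (19.3% after thinning) and in 36.6% ± 5.57 of Fibroblast 2 cells (28.9% after thinning), so most cells of either population had no UMI of it. In Fibroblast sub-cluster 1 the thinned share, 2.18%, was no higher than the 2.65% in RPE cells.

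Sod3, the extracellular superoxide dismutase, was at 67.1 CPM ± 30.4 against 4.51 CPM ± 1.07 in Fibroblast sub-cluster 1 and 254 CPM ± 123 in Fibroblast 2. Fndc1, a secreted protein with fibronectin domains, was at 104 CPM ± 29.2, near the 80.9 CPM ± 18.3 of Fibroblast 2 and above the 6.79 CPM ± 1.56 of Fibroblast sub-cluster 1. Shisa2, which holds back receptors of the Wnt and FGF pathways, was at 21.5 CPM ± 6.43, near the 27.3 CPM ± 8.23 of Fibroblast 2 and above the 2.16 CPM ± 0.689 of Fibroblast sub-cluster 1. Mmp3, the matrix-degrading stromelysin, was uneven over samples, with 20.4 to 72.1 CPM in 5 samples and 199 CPM in ko/ko replicate 3, which is also the only sample of batch 2. Gzmd, a granzyme from a family of near-identical genes whose counts are therefore uncertain, was at 10.2 to 28.9 CPM in 5 samples and at 145 CPM in wt/wt replicate 3.

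Several of the genes lowest against Fibroblast sub-cluster 1 were lower still in Fibroblast 2. Stmn2, a stathmin that destabilises microtubules and is best known from neurons, was at 44.1 to 65.7 CPM in the wt/wt samples and at 63.3, 127 and 58.5 CPM in the ko/ko samples. Fibroblast sub-cluster 1 held 546 to 908 CPM and Fibroblast 2 held 10.1 to 30.1 CPM, so the 3 populations did not overlap. Stmn2 was found in 13.0% ± 4.38 of the thinned cells, against 56.0% ± 3.17 in Fibroblast sub-cluster 1 and 6.31% ± 2.53 in Fibroblast 2. In RPE cells its thinned share was 40.3% ± 15.6, too high for them to serve as its background. Ccnd1, the cyclin D1 that drives cells through G1, was at 52.6 CPM ± 13.0 against 259 CPM ± 27.8 and 18.8 CPM ± 6.14. Col2a1, the chain of cartilage and vitreous collagen, was at 3.72 CPM ± 2.87 against 55.4 CPM ± 7.70 and 1.78 CPM ± 0.887. Col6a3, a chain of microfibrillar collagen VI, was at 5.70 CPM ± 1.5 against 30.4 CPM ± 2.15 and 4.19 CPM ± 0.753. Acta1 (skeletal muscle actin) had a log2 difference of -2.55 ± 0.72 from Fibroblast sub-cluster 1, and Eno3 (the muscle enolase) one of -2.27 ± 0.31. Lce1h, Klra4, Gm2115 and Ctla2a completed the 10 lowest, with log2 differences of -4.50, -2.65, -2.26 and -2.17.

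Several of the genes most above Fibroblast 2 had levels near those of Fibroblast sub-cluster 1. Spon2, a secreted spondin of the matrix, was at 32.3 to 92.8 CPM over the 6 samples, against 55.2 to 121 CPM in Fibroblast sub-cluster 1 and 1.40 to 6.23 CPM in Fibroblast 2. Itga8, an integrin subunit that binds fibronectin and tenascin, was at 26.0 CPM ± 7.94 against 22.5 CPM ± 3.99 and 2.83 CPM ± 1.02. Rab3b, a GTPase of regulated secretion, and Serpinb6b, a serine protease inhibitor with close paralogues, were higher than in Fibroblast 2 by log2 differences of 2.92 ± 0.45 and 2.72 ± 0.46, and differed from Fibroblast sub-cluster 1 by 0.27 ± 0.41 and -0.15 ± 0.47. Synpo, an actin-binding protein, was at 53.2 CPM ± 20.7 against 26.6 CPM ± 12.9 and 7.12 CPM ± 3.29.

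Genes lower than in Fibroblast 2 included several with low levels in the Fibroblast cells of sub-cluster 3. Rgs2, which switches off signalling by G proteins, was at 9.59 CPM ± 3.62 against 157 CPM ± 54.2 in Fibroblast 2 and 5.89 CPM ± 0.348 in Fibroblast sub-cluster 1. Tnfsf11 (RANKL, the osteoclast factor) was at 21.2 CPM in wt/wt replicate 2 and at 2.49 to 9.14 CPM in the other 5 samples, against 27.9 to 84.5 CPM in Fibroblast 2 and 1.25 to 2.22 CPM in Fibroblast sub-cluster 1. Alpl, the alkaline phosphatase of mineralising tissue, was at 12.0 CPM ± 5.75 against 79.1 CPM ± 37.5 and 0.78 CPM ± 0.322. The subunits Kcne4 and Kcnj8 of potassium channels had log2 differences from Fibroblast 2 of -3.02 ± 0.33 and -2.58 ± 0.59. Ccno, A730049H05Rik and F5 (coagulation factor V) had log2 differences of -3.91 ± 1.36, -3.76 ± 1.11 and -3.01 ± 1.34. Igfbp5, which binds insulin-like growth factors, lay in the middle: it was at 227 to 690 CPM over the 6 samples, against 27.4 to 60.3 CPM in Fibroblast sub-cluster 1 and 1821 to 4863 CPM in Fibroblast 2, with no overlap. It was found in 22.1% ± 6.42 of the thinned cells (36.9% without thinning), so most cells had no UMI of it. The thinned shares were 5.60% in Fibroblast sub-cluster 1, 56.1% in Fibroblast 2 and 7.43% in RPE cells.

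The same count rule was then required against each neighbour. By it, the Fibroblast cells of sub-cluster 3 were above both neighbours in 35 of 6822 genes (0.513%) and below both in 0 genes. A gene above both could reach the CPM level of the rule in these cells alone. A gene below both had to reach it in each neighbour, so the counts of 35 and 0 cannot be compared with each other. Col10a1, the collagen X chain known from hypertrophic cartilage, was the gene farthest above both. It was at 65.0, 59 and 78.9 CPM in the wt/wt samples and at 79.2, 68.6 and 135 CPM in the ko/ko samples. Fibroblast sub-cluster 1 held 7.07 to 9.52 CPM and Fibroblast 2 held 8.16 to 16.6 CPM, so every sample was above both, by log2 differences of 3.21 ± 0.40 and 2.95 ± 0.19. Col10a1 was found in 16.6% ± 3.48 of the thinned cells and in 38.9% without thinning, so most cells had no UMI of it. The thinned shares were 3.89% in Fibroblast sub-cluster 1, 2.99% in Fibroblast 2 and 0.92% in RPE cells. Igf1, the insulin-like growth factor that promotes growth and survival, was the next, at 195, 142 and 172 CPM in the wt/wt samples and at 163, 133 and 166 CPM in the ko/ko samples. Its levels in the neighbours were 15.4 to 19.2 CPM and 23.5 to 50.3 CPM, again without overlap. Igf1 was found in 42.9% ± 3.86 of the thinned cells, against 6.78% ± 0.718 in Fibroblast sub-cluster 1, 12.2% ± 3.06 in Fibroblast 2 and 5.98% ± 1.35 in RPE cells. The shares without thinning were 75.8%, 23.5%, 30.4% and 13.3%.

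Both genes lie on chromosome 10 of GRCm38, Col10a1 at chr10:34389981-34397085 and Igf1 at chr10:87858265-87937042, each on the forward strand. The 250 bases before a RefSeq start of each gene (build GRCm38.p6) are shown because these were the leading genes that neither neighbour shared. Capitals mark the letters TATAAA on the gene's strand, the core of a TATA box.
Col10a1, chr10:34389731-34389980: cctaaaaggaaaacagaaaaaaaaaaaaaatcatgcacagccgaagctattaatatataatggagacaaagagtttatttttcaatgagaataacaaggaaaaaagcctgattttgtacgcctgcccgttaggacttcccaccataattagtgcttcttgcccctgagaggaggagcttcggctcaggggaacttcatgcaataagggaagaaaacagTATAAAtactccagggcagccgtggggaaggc
Igf1, chr10:87860861-87861110: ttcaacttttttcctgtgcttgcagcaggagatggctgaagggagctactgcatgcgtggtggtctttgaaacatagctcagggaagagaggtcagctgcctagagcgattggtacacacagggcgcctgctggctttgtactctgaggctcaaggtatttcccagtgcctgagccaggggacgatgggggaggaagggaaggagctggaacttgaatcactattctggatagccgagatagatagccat
The Col10a1 window ended just before the annotated gene given above. The Igf1 window lay inside the annotated gene, before a start downstream of its first base, so the 2 windows are not equivalent. In Col10a1 the letters began at position -32 relative to the start, and in Igf1 they were absent on both strands of this window. They were on the gene's strand in 7.59% and on either strand in 12.4% of the 32851 promoter windows of this length. RefSeq windows were found for 8 of the 10 genes farthest above both populations, and the letters were on the gene's strand in windows of Col10a1, Col3a1 and Postn. They began at -117 in Col3a1 and at -26 in Postn. Postn had a further window without them, and Il1rn had several windows, all without them. The share of 7.59% counts windows and not genes. A 3′ count does not show which start a transcript used.

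Of the other genes farthest above both neighbours, Col3a1, the chain of fibrillar collagen III, was at 370 to 831 CPM against 154 to 338 CPM in Fibroblast sub-cluster 1 and 92.5 to 213 CPM in Fibroblast 2. Postn, the matrix protein periostin, was at 25.4 to 68.7 CPM over the 6 samples, against 14.4 to 25.6 CPM and 4.61 to 11.1 CPM. C4bp, an inhibitor of the complement cascade, was at 82.7 CPM ± 16.6 against 20.8 CPM ± 3.61 and 11.1 CPM ± 1.88. Further genes above both were Il1rn, the antagonist of the interleukin 1 receptor, Dkk3, a member of the dickkopf family, and Ntrk3, the receptor of neurotrophin 3. Fibroblast sub-cluster 1 had a higher mean than Fibroblast 2 for Il1rn and Ntrk3, and a lower one for Dkk3. In the same sequence, their log2 differences from Fibroblast sub-cluster 1 were 1.90 ± 0.49, 2.14 ± 0.37 and 1.66 ± 0.44, and those from Fibroblast 2 were 2.62 ± 0.96, 1.64 ± 0.43 and 2.22 ± 0.42. Tubb4a (a beta tubulin) and Rasl11a (a small GTPase) completed the 10, at 31.8 CPM ± 7.22 and 71.5 CPM ± 13.3.

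The counts for each gene list stand beside the shares of all genes under the same rule, which were 1.93% higher and 0.96% lower against Fibroblast sub-cluster 1 and 3.54% higher and 1.85% lower against Fibroblast 2. The lists were chosen with earlier results of these data known, so their counts are a description. They do not hold every gene of a family, so each count covers the listed genes only. Of 13 chemokines, cytokines and complement genes measured, 10 were higher and 0 were lower than in Fibroblast sub-cluster 1, with a median log2 difference of 1.44 against -0.03 over all genes. Ccl7, a monocyte chemoattractant, was at 1757 CPM ± 377 against 298 CPM ± 53.9 in Fibroblast sub-cluster 1 and 3203 CPM ± 475 in Fibroblast 2. Ccl2, its close relative, was at 711 CPM ± 183 against 187 CPM ± 51.4 and 1165 CPM ± 238. The cytokine Il6 was at 245 CPM ± 59.7 against 51.4 CPM ± 10.8 and 425 CPM ± 132, and Lif at 90.2 CPM ± 24.4 against 26.8 CPM ± 5.18 and 288 CPM ± 94.5. These 4 genes thus stood between the neighbours. Cxcl12, which retains leukocytes and stem cells, was instead above Fibroblast sub-cluster 1 by 1.37 ± 0.12 and above Fibroblast 2 by 0.91 ± 0.15. The chemokine Cxcl14 and the complement regulator Serping1 were counted as higher than in both. Csf1, the macrophage growth factor, differed by less than 2-fold from either. Against Fibroblast 2, 3 of 14 genes were higher and 3 were lower (Ccl11, Lif and Cxcl2), with a median of -0.58.

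Of the general fibroblast markers, 5 of 11 measured were higher (Lum, Dcn, Mgp, Col3a1 and Pdgfrb) and 2 lower (S100a4 and Thy1) than in Fibroblast sub-cluster 1, with a median of 0.76. Against Fibroblast 2, 6 of 10 were higher (Lum, Mgp, Col3a1, Col1a1, Col1a2 and S100a4) and 0 were lower, with a median of 1.28. S100a4, a calcium-binding protein of motile cells, was at 182 CPM ± 47.3 between 785 CPM ± 237 and 50.2 CPM ± 20.6. Pdgfrb, a receptor of platelet-derived growth factor, was at 184 CPM ± 43.4 against 77.2 CPM ± 16.2 and 93.6 CPM ± 18.0. Of the pericyte genes, Cspg4 was lower and 0 of 3 were higher than in Fibroblast sub-cluster 1, while Mcam and Rgs5 were higher and Kcnj8 was lower among the 4 measured against Fibroblast 2.

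Of 19 listed contractile genes measured, 1 was higher and 0 were lower than in Fibroblast sub-cluster 1, with a median of 0.03. Of all genes, 1.93% were higher and 0.96% lower, so that the counts of the list were near those shares. The list did not hold Acta1, counted as lower than in Fibroblast sub-cluster 1, or Mylk, a kinase of myosin light chains counted as higher than in both neighbours. Against Fibroblast 2, 6 of the 19 were higher and 0 were lower, with a median of 0.62, where 3.54% and 1.85% of all genes were. Acta2, smooth muscle actin, was at 11583 CPM ± 726, against 12273 CPM ± 1045 in Fibroblast sub-cluster 1 and 5095 CPM ± 998 in Fibroblast 2. Tagln, the actin-binding transgelin, was at 10621 CPM ± 1663 against 9959 CPM ± 969 and 6150 CPM ± 1218, and Tpm1 (tropomyosin) at 3440 CPM ± 374 against 3601 CPM ± 342 and 2047 CPM ± 371. Cnn1, the smooth muscle calponin, was at 354 CPM ± 49.7 between 594 CPM ± 68.7 and 61.9 CPM ± 20.7. Cald1 (caldesmon) was within 0.03 of both neighbours on the log2 scale. The 1 listed gene counted as higher than in Fibroblast sub-cluster 1 was Des, the muscle intermediate filament desmin. It was 1.24 ± 0.14 higher than in Fibroblast sub-cluster 1 and 0.06 ± 0.11 from Fibroblast 2. Differences below 2-fold from Fibroblast sub-cluster 1 ran from -0.75 ± 0.11 for Cnn1 to 0.57 ± 0.11 for the myosin light chain Myl6.

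Collagens and other matrix genes were compared next. Of 11 listed collagens measured against Fibroblast 2, 7 were higher and 0 were lower, with a median of 1.03. Of 12 listed ones measured against Fibroblast sub-cluster 1, Col3a1 was higher and Col6a3 was lower, with a median of -0.01. The list did not hold Col10a1, counted as higher than in both neighbours, or Col2a1, counted as lower than in Fibroblast sub-cluster 1. Col1a1 and Col1a2, the chains of collagen I, were at 480 CPM ± 70.6 and 382 CPM ± 79.7, below the 706 CPM ± 94.5 and 688 CPM ± 80.8 of Fibroblast sub-cluster 1 and above the 187 CPM ± 29.5 and 76.3 CPM ± 10.5 of Fibroblast 2. Col5a2, Col8a1 and Col4a1 were within 0.28 of Fibroblast sub-cluster 1 on the log2 scale. Among 24 listed matrix glycoproteins and matrix enzymes, 3 were higher (Spp1, Thbs2, Postn) and 2 lower (Fn1, Fbln2) than in Fibroblast sub-cluster 1. Against Fibroblast 2, 12 were higher and 1 (Spp1) was lower, and the medians were 0.15 and 0.94. The list did not hold Nid2, a nidogen counted as higher than in both neighbours. Spp1, the secreted osteopontin, was at 4757 CPM ± 1632 between 1267 CPM ± 268 and 15388 CPM ± 3484. Thbs1, the matrix protein thrombospondin 1, was at 1975 CPM ± 336 against 2815 CPM ± 335 and 543 CPM ± 53.3. Of 4 small leucine-rich proteoglycans, Lum and Dcn were higher than in Fibroblast sub-cluster 1 and Lum, Bgn and Ogn were higher than in Fibroblast 2, with medians of 1.29 and 1.15.

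Enzymes and growth factor regulators gave a mixed picture. Of 12 metalloproteinases and inhibitors, 3 were higher (Mmp3, Mmp10 and Mmp13) and 1 lower (Mmp23) than in Fibroblast sub-cluster 1, and 4 of 11 were higher than in Fibroblast 2, with medians of 0.29 and 0.72. Timp1, an inhibitor of metalloproteinases, was at 7144 CPM ± 1066, near the 7273 CPM ± 816 of Fibroblast 2, while Timp3 was higher than in Fibroblast 2 by 1.31 ± 0.13. Of 8 genes of the IGF system, 2 were higher (Igf1 and Igfbp5) and 1 lower (Igfbp6) than in Fibroblast sub-cluster 1, and 4 were higher and 1 (Igfbp5) lower than in Fibroblast 2, with medians of 0.28 and 0.89. The binding protein Igfbp4 was at 847 CPM ± 102 against 790 CPM ± 71.3 in Fibroblast sub-cluster 1 and 175 CPM ± 47.7 in Fibroblast 2. Of 13 listed Wnt and BMP regulators, 1 was higher (Dkk3) and 1 lower (Inhba) than in Fibroblast sub-cluster 1. Against Fibroblast 2, 6 were higher and 0 lower, and the medians were 0.21 and 0.96. The list did not hold Nkd2, a Wnt inhibitor counted as higher than in both neighbours. Fst, the activin antagonist follistatin, was at 548 CPM ± 50.9 against 382 CPM ± 44.3 and 182 CPM ± 12.1.

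Of 25 transcription factors measured against Fibroblast sub-cluster 1, 2 were higher (Ebf1 and Nr2f1) and 2 lower (Klf4 and Foxc2), where 1.93% and 0.96% of all genes were, and of 24 measured against Fibroblast 2, 2 were higher (Prrx1 and Prrx2) and 0 lower, where 3.54% and 1.85% of all genes were, with medians of 0.16 and 0.04. Ebf1, a regulator of mesenchymal and B cell fate, was at 165 CPM ± 14.2, level with the 163 CPM ± 24.3 of Fibroblast 2 and above the 80.1 CPM ± 6.98 of Fibroblast sub-cluster 1. Prrx2, a homeobox factor of mesenchyme, was at 232 CPM ± 26.4 between 368 CPM ± 30.4 and 78.8 CPM ± 14.2. Of 5 adventitial fibroblast genes, Igfbp6 was lower than in Fibroblast sub-cluster 1, and Igfbp6 and Mfap5 were higher than in Fibroblast 2, where 4 were measured. The medians were -0.60 and 0.83. Of the 15 immediate early genes, which respond within minutes to stimulation or dissociation, 0 were higher and 1 (Klf4) was lower than in Fibroblast sub-cluster 1, and 0 were higher and 4 (Ier3, Nr4a1, Fosl1 and Jun) were lower than in Fibroblast 2, with medians of 0.09 and -0.39. Among cell cycle genes, Mki67, the Ki-67 antigen, was at 0 to 1.11 CPM and Top2a, a topoisomerase of dividing cells, at 4.06 to 6.96 CPM, while Rrm2, a subunit of ribonucleotide reductase, was at 58.5 CPM ± 10.2 and the helicase subunit Mcm6 at 39.5 CPM ± 7.28. The 28 genes of the list summed to 203 to 262 CPM, against 286 to 343 CPM in Fibroblast sub-cluster 1 and 132 to 189 CPM in Fibroblast 2. The list did not hold Ccnd1, counted as lower than in Fibroblast sub-cluster 1. Of 6 genes of the list above 20 CPM, 1 (Cdk1) was lower than in Fibroblast sub-cluster 1. Of 3 measured against Fibroblast 2, 1 (Rrm2) was higher. The medians were -0.41 and 0.89.

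The place of the cells between the neighbours was measured on genes that differ between the neighbours themselves. These axis genes were chosen as those 2-fold or more apart in the 3 samples of 1 genotype, and the position was read in the 3 samples of the other, with 0 at the level of Fibroblast sub-cluster 1 and 1 at the level of Fibroblast 2. Over 616 axis genes, the median position in the wt/wt samples was 0.36, 0.37 and 0.37. Over 630 axis genes, it was 0.34, 0.38 and 0.33 in the ko/ko samples. The cells thus lay between the neighbours and closer to Fibroblast sub-cluster 1, at 0.36 ± 0.018 (SD, n = 6). Of the axis genes 82.5% ± 3.31 were between the levels of the neighbours, 12.8% ± 2.67 lay beyond Fibroblast sub-cluster 1 and 4.76% ± 0.786 beyond Fibroblast 2. Restricting the axis to genes 4-fold or more apart moved the median position to 0.46.

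The position depended on the direction of the axis gene. Genes higher in Fibroblast 2 had a median position of 0.46 ± 0.028 and genes higher in Fibroblast sub-cluster 1 one of 0.28 ± 0.018, and the ranges, 0.42 to 0.49 and 0.26 to 0.30, did not overlap. Single genes were spread widely around these medians. Of the 250 genes that were higher in Fibroblast 2 on both axes, 16 (6.4%) were at or beyond the level of Fibroblast 2, Lum (1.47) among them, and 11 (4.4%) lay below that of Fibroblast sub-cluster 1. Of the 306 genes higher in Fibroblast sub-cluster 1 on both axes, 50 (16.3%) lay beyond the level of that population, Mgp (-0.62) among them, and 3 reached that of Fibroblast 2. The chemokines Ccl11, Ccl7 and Ccl2 had positions of 0.77, 0.74 and 0.73, and Dcn one of 0.93. The contractile genes Acta2 and Actg2 had positions of 0.06 and 0.15, and Col1a1 one of 0.29. These positions were read on the log2 scale of summed cells, where they differed between genes. The part of that scale in the difference between the directions was not tested.

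**Figure D2:**
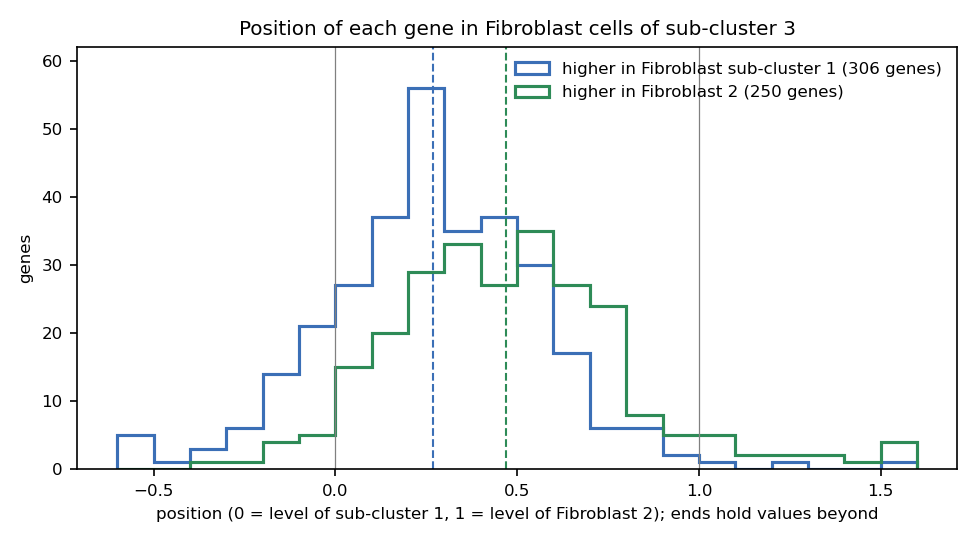
The histogram gives the number of axis genes at each position in the Fibroblast cells of sub-cluster 3, where 0 is the level of Fibroblast sub-cluster 1 and 1 that of Fibroblast 2, for 306 genes higher in Fibroblast sub-cluster 1 (blue) and 250 genes higher in Fibroblast 2 (green). Dashed lines mark the medians, 0.27 and 0.47, and most genes of either set lie between 0 and 1.

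Distances over 3935 protein-coding genes, of 50 CPM or more in at least 1 population, gave the same order. The root mean square log2 difference over genes of 50 CPM or more was 0.44 ± 0.036 (SD, n = 6) from Fibroblast sub-cluster 1 and 0.57 ± 0.035 from Fibroblast 2, while the neighbours were 0.74 ± 0.035 apart. The sum of both distances was 1.37 ± 0.041 times the direct one, a path that would be 1 if the cells lay on the straight line between the neighbours. These distances hold counting error, which is larger in the smaller sums of the Fibroblast cells of sub-cluster 3.

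Single cells were placed on the same axis. Each cell, thinned to 5000 UMIs, was scored by its axis genes and scaled in its sample so that the median cell of Fibroblast sub-cluster 1 was 0 and that of Fibroblast 2 was 1. The median score of the Fibroblast cells of sub-cluster 3 was 0.46, 0.41 and 0.42 in the wt/wt samples and 0.39, 0.43 and 0.36 in the ko/ko samples. Their SD within a sample was 0.188 on average, below the 0.236 of Fibroblast sub-cluster 1 and the 0.306 of Fibroblast 2. Scores up to the 95th percentile of Fibroblast sub-cluster 1 were seen in 48.0% to 52.0% of the cells in the wt/wt samples and in 60.2% to 71.6% in the ko/ko samples. Scores from the 5th percentile of Fibroblast 2 upwards were seen in 12.9% to 16.5% and 20.9% to 25.5%. The gap between these limits held 35.4%, 35.6% and 35% of the cells in the wt/wt samples and 10.4%, 14.2% and 4.48% in the ko/ko samples. Of Fibroblast sub-cluster 1 cells 3.49% ± 0.999 scored above 0.5, and of Fibroblast 2 cells 2.33% ± 1.81 scored below it. The names and sub-clusters were made from expression of these cells, so the spread of scores is a description. Scored instead by the ratio of summed counts, the median was 0.34, and leaving out the cells above the 95th percentile of UMIs in each sample gave 0.41.

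**Figure D3:**
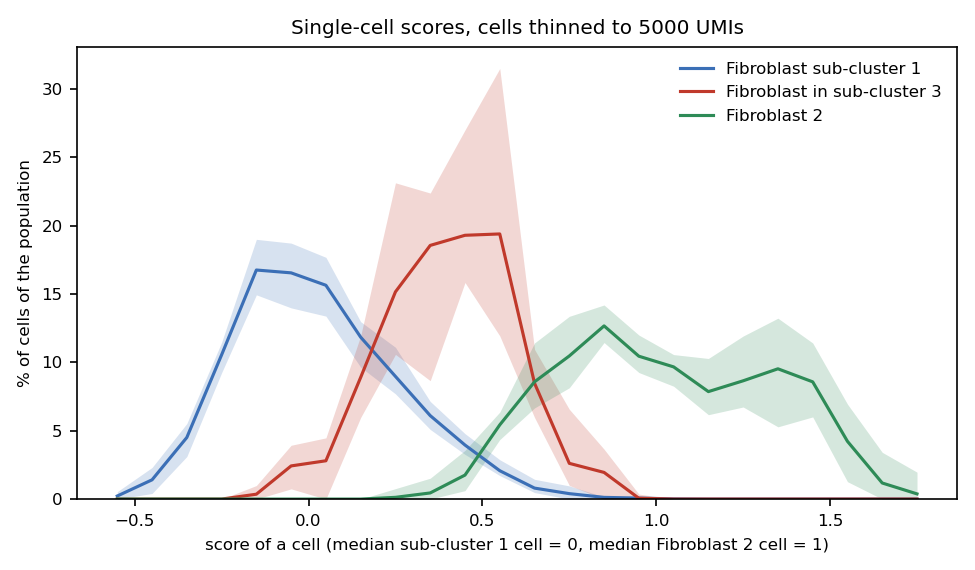
The curves give the percentage of cells of a population in each score bin of 0.1, for Fibroblast sub-cluster 1 (blue), Fibroblast cells of sub-cluster 3 (red) and Fibroblast 2 (green), as the mean over 6 samples with a band from the lowest to the highest sample. The red curve has a single hump between the others, with a mean of the sample medians of 0.41.

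The remaining comparisons asked whether loss of Dram2, a lysosomal membrane protein linked to autophagy and to inherited retinal dystrophy, went with differences in these cells. Dram2 itself was at 28.8, 43.4 and 42.3 CPM in the wt/wt samples and at 27.7, 26.8 and 29.6 CPM in the ko/ko samples. The lowest control overlapped with the ko/ko samples, and the log2 difference was -0.39 (SE 0.17, voom-limma adjusted p = 0.911). Counts from the 3′ end of transcripts need not cover exon 4, so they do not check the deletion.

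The share of these cells among all Fibroblast cells was 6.62%, 4.42% and 4.02% in the wt/wt samples and 8.09%, 8.34% and 7.72% in the ko/ko samples. The groups did not overlap, and the difference was 3.03 percentage points (5.02% ± 1.40 against 8.05% ± 0.312, SD, n = 3 each; exact two-sided permutation test, p = 0.1, the smallest that 3 samples against 3 allow). Within batch 1 alone the difference was 3.19 points (exact permutation p = 0.2, 3 samples against 2). As a share of all sub-cluster 3 cells the values overlapped, with 19.3%, 23.2% and 23.2% in the wt/wt samples, 15.6%, 21.9% and 24.6% in the ko/ko samples and a difference of -1.20 points (exact permutation p = 0.8), which was -3.15 without ko/ko replicate 3 and 1.35 without ko/ko replicate 1, so that library decided its sign. As a share of the cells of the 4 fibroblast types the values were 3.54%, 2.55% and 2.48% against 3.35%, 4.39% and 4.16%, which overlapped, with a difference of 1.11 points (exact permutation p = 0.2). No share passed 0.05, which this test cannot reach with 3 samples against 3. The median score on the axis differed by -0.03 between genotypes (0.43 ± 0.028 in wt/wt, 0.39 ± 0.035 in ko/ko, exact permutation p = 0.3). The share of cells in the gap between the score limits of the neighbours differed by -25.6 points, and the shares within the ranges of Fibroblast sub-cluster 1 and of Fibroblast 2 by 16.3 and 9.31 points (exact two-sided permutation p = 0.1 each, the smallest possible, and 0.133 after Benjamini-Hochberg adjustment over 4 comparisons). In these 3 shares the genotypes did not overlap, also within batch 1, where the gap share differed by -23.0 points. The share within the range of Fibroblast 2 did overlap with cells thinned to 2000 UMIs (6.28 points) and under the ratio of summed counts (5.56 points). The fourth, the share of cells scoring above 0.5, was 27% to 43.3% in wt/wt and 20.9% to 39.8% in ko/ko (exact permutation p = 0.5). The gap itself was 0.117 to 0.169 wide in the wt/wt samples and 0.045 to 0.086 wide in the ko/ko samples, and its limits rest on different axis genes in each genotype. Scored by the ratio of summed counts, the gap held 0% to 6.93% of the cells in wt/wt and 0% in ko/ko, with overlap and a difference of -2.64 points (exact permutation p = 0.4). The part of the limits in the difference was not tested.

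**Figure D4:**
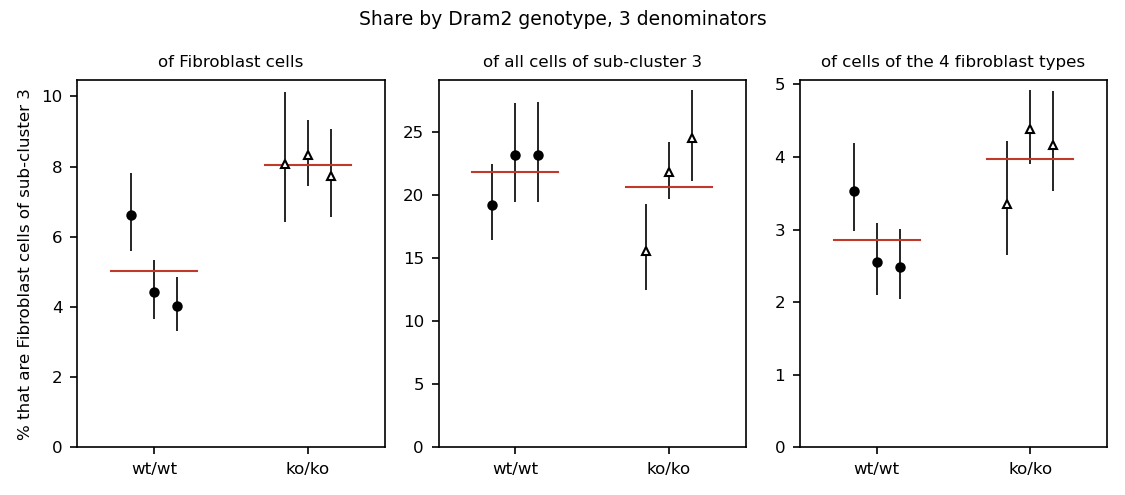
Each panel gives the percentage of 1 denominator that were Fibroblast cells of sub-cluster 3, by sample, with 95% Wilson intervals for counting error, filled circles for wt/wt, open triangles for ko/ko and red lines for means of 3. The genotypes are apart in the panel of Fibroblast cells, from 4.02% to 6.62% against 7.72% to 8.34%, and overlap in the other panels.

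Between genotypes, 48 of 12156 genes (0.395%) were called in these cells by voom-limma at an adjusted p under 0.05, of which 47 (0.387%) fell in ko/ko and 1 (0.00823%) rose. The one that rose was Serpinb2 (plasminogen activator inhibitor 2, which blocks urokinase), at 38.5, 33.0 and 41.0 CPM in the wt/wt samples and at 108, 109 and 58.3 CPM in the ko/ko samples. The groups did not overlap, and its log2 fold change was 1.24 (SE 0.24, voom-limma adjusted p = 0.0467). The call was lost when wt/wt replicate 1, 2 or 3 or ko/ko replicate 1 or 2 was left out, with log2 fold changes of 1.07 to 1.30, and without the cells above the 95th percentile of UMIs. Without ko/ko replicate 3 the log2 fold change was 1.55.

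Of the 47 genes that fell, 21 were pseudogenes, 9 were genes of ribosomal proteins or their paralogues, 14 were other protein-coding genes and 3 were non-coding, where 695, 93, 10699 and 669 of all tested genes were of these kinds. Rpl41, a small protein of the large ribosomal subunit, was at 230, 246 and 236 CPM in the wt/wt samples and at 125, 77.6 and 72.2 CPM in the ko/ko samples, with a log2 fold change of -1.41 (SE 0.18, voom-limma adjusted p = 0.0191). Gng5 (a G protein subunit), Rpl22l1 (a paralogue of a ribosomal protein) and Cox7c (a subunit of cytochrome c oxidase) fell by 1.78, 1.25 and 1.41 on the log2 scale, with no overlap of the groups. The strongest falls were in Gm45808, Rps15-ps2, Rps15a-ps2, Rps12-ps3 and Gm7808, by 2.18, 2.11, 2.06, 2.00 and 1.98. Gm45808 is annotated as protein-coding and the other 4 are pseudogenes, which share sequence with the genes they copy, so their counts are uncertain.

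The longest annotated transcript of the 47 genes had a median of 502 bases, against 3219.5 bases over all tested genes. The same 47 genes had median log2 fold changes of -1.39 in Fibroblast sub-cluster 1 and -1.32 in Fibroblast 2, which come from the same 6 libraries as the -1.41 in the Fibroblast cells of sub-cluster 3. In those populations voom-limma called 58 of 18994 and 33 of 14882 genes, all of them lower in ko/ko. The part of transcript length or of the libraries in this result was not tested. Leaving out wt/wt replicate 2, wt/wt replicate 3 or ko/ko replicate 2 left 0 calls by voom-limma (540, 453 and 622 genes at an unadjusted p under 0.05, against 615 with all samples), leaving out wt/wt replicate 1 left 19, and leaving out ko/ko replicate 1 gave 108. Within batch 1, without ko/ko replicate 3, 43 genes were called, 39 of them lower in ko/ko. Gm45808 was not called whichever sample was left out.

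Of 240 tested genes of the lists described above, 0 were called between genotypes by voom-limma, edgeR or DESeq2, with 13, 11 and 6 genes at an unadjusted p under 0.05. Over all 12156 tested genes, 615, 603 and 423 were at an unadjusted p under 0.05 by these 3 tests. Voom-limma called 0.395% of all tested genes, so a count of 0 in lists of this size is near that share. Lum, Dcn and Mgp had log2 fold changes of -0.06, 0.01 and -0.01 in the Fibroblast cells of sub-cluster 3, and the sign of the last 2 turned under some alternatives.

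Whether the effect of genotype differed between populations was tested by an interaction term with the sample as a factor. Against Fibroblast sub-cluster 1, 2 of 17728 genes (0.0113%) were called, 1 with a higher and 1 with a lower effect (0.00564% each). The genotype effect on Serpinb2 was 0.96 higher on the log2 scale (SE 0.11, voom-limma adjusted p = 0.00085) in the Fibroblast cells of sub-cluster 3 than in Fibroblast sub-cluster 1, where its level was 113, 123 and 124 CPM in wt/wt and 185, 169 and 97.3 CPM in ko/ko. The effect on Spp1 was 0.88 lower, a log2 difference of -0.88 (SE 0.13, voom-limma adjusted p = 0.0134). Spp1 was at 3849, 7230 and 6184 CPM in wt/wt and at 2926, 4575 and 3780 CPM in ko/ko in the Fibroblast cells of sub-cluster 3, where the groups overlapped, and at 992, 1540 and 898 CPM against 1270, 1408 and 1496 CPM in Fibroblast sub-cluster 1.

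Against Fibroblast 2, 3 of 13903 genes (0.0216%) were called, 1 with a higher (0.00719%) and 2 with a lower effect (0.0144%). The effect on Serpinb2 was again higher, by 1.38 (SE 0.17, voom-limma adjusted p = 0.00515). In Fibroblast 2 Serpinb2 was at 69.9, 83.5 and 69.2 CPM in wt/wt and at 102, 69.1 and 34.4 CPM in ko/ko, with overlap. The effect on Gadd45g, a stress-induced growth arrest gene, differed by -0.62 (SE 0.085, voom-limma adjusted p = 0.0093), with 494, 387 and 337 CPM against 302, 482 and 311 CPM in the Fibroblast cells of sub-cluster 3 and 270, 162 and 143 CPM against 206, 348 and 226 CPM in Fibroblast 2. Cck, the peptide cholecystokinin, differed by -3.98 (SE 0.63, voom-limma adjusted p = 0.0324), but it rested on 1 library: the Fibroblast cells of sub-cluster 3 held 85.7 CPM in wt/wt replicate 3 and 0.37 to 8.32 CPM in the other samples. Without that library the difference was -0.21 (voom-limma adjusted p = 0.997).

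**Figure D5:**
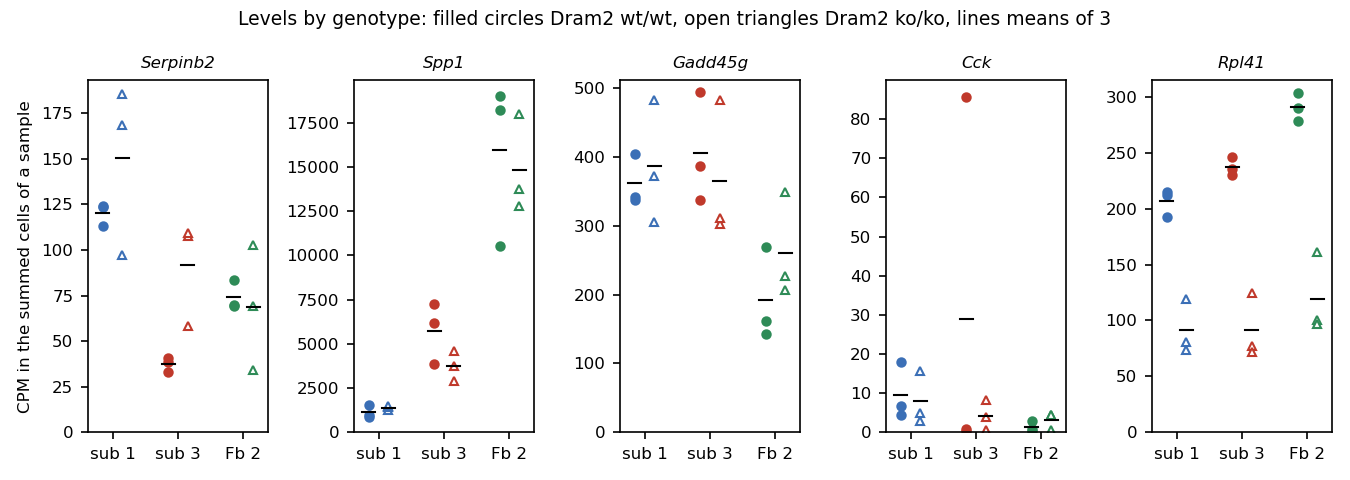
Each panel gives the level of 1 gene (CPM) by sample in Fibroblast sub-cluster 1 (sub 1), Fibroblast cells of sub-cluster 3 (sub 3) and Fibroblast 2 (Fb 2), with filled circles for wt/wt, open triangles for ko/ko and lines for means of 3. Serpinb2 is apart by genotype in the middle population, Rpl41 is lower in ko/ko in all 3, and 1 sample stands out for Cck.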

How the data were processed

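The deposited table holds UMI counts per gene and cell, which the authors made with cellranger (reference mm10, exons only) without normalisation. The submitters' processing notes name Cell Ranger 3.1.0. A second deposited table gives sample, genotype, batch, type name and fibroblast sub-cluster per cell. The type names came from Louvain clusters in Seurat after integration over batches, and the settings of the fibroblast sub-clustering are not given in the sources used here. Gene positions are those of GENCODE M21 on GRCm38.

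All deposited cells were used. No doublet caller was run. UMI counts were summed per sample and population. Genotype was tested with voom-limma (limma 3.58.1, TMM factors of edgeR 4.0.16, R 4.3.3, filterByExpr, Benjamini-Hochberg adjustment), and shares and scores with exact two-sided permutation tests. Differences between populations were described without a test, on log2 CPM with a prior count of 0.5. Alternatives were edgeR's quasi-likelihood test, DESeq2 1.42.0, RLE size factors, no filter on low counts, the batch or the replicate number as a term, cell filters (under 500 genes or over 20% mitochondrial counts, cells above the 95th percentile of UMIs), a prior count of 5, a level of 50 CPM, other denominators and leaving out each sample. Both calculations were tested on simulated data.

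Named genes were Lum, Dcn, Mgp, Dram2, Mki67 and Top2a, the 10 largest and 10 smallest counted differences from each neighbour, the 10 genes farthest above both, the up to 5 called genes farthest in each direction between genotypes whose groups did not overlap, the 5 protein-coding genes of lowest p, called interaction genes, and up to 4 genes of highest level per list. Others among the counted members of a list were named after their values were seen. Some genes that this rule names are not reported here. The members and the gene lists were chosen with earlier results of these data known.

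Replicate numbers did not pair the samples: deviations of same-numbered samples correlated at -0.19, -0.47 and 0.11 over 6416 genes. Depth ranged from 96808998 to 122746184 UMIs per library, and intervals cover counting error only.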

Additional observations from a re-analysis of the deposited data

Results flagged for a closer look

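The genotype effect in the Fibroblast cells of sub-cluster 3 differed from that in a neighbouring population, by a test of the difference itself, in 5 cases. For Serpinb2 the difference of the log2 fold changes was 0.96 against Fibroblast sub-cluster 1 and 1.38 against Fibroblast 2. The call against Fibroblast sub-cluster 1 was lost without a filter on low counts. Over the alternatives the difference was 0.88 to 1.06 (adjusted p of 1.81e-05 to 0.103) and 1.23 to 1.67 (adjusted p of 7.38e-07 to 0.0331). ko/ko replicate 3, the only sample of batch 2, had the lowest Serpinb2 level among the ko/ko samples in each population, and without it the differences were 0.99 and 1.34. For Spp1 the difference from Fibroblast sub-cluster 1 was -0.88, with -1.06 to -0.64 over the alternatives, and voom-limma no longer called it without a filter on low counts (adjusted p = 0.542) or without ko/ko replicate 1 (-0.76). For Gadd45g the difference from Fibroblast 2 was -0.62, with -0.78 to -0.56 over the alternatives and an adjusted p of 0.000259 to 0.0449. For Cck the difference from Fibroblast 2 was -3.98 and was -0.21 without wt/wt replicate 3, where it was no longer called, nor was it without ko/ko replicate 2 or without a filter on low counts.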

How the results depend on the processing

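The position of the Fibroblast cells of sub-cluster 3 between the neighbours stayed between 0 and 1 in every alternative. It was 0.36 with all settings as reported, 0.46 with axis genes 4-fold apart, 0.33 with axis genes of 50 CPM or more and 0.35 to 0.37 without each sample in turn. The median score of single cells moved from 0.41 to 0.34 under the ratio of summed counts. A level of 50 CPM, which leaves fewer genes, gave 78 higher and 34 lower genes against Fibroblast sub-cluster 1 and 149 higher and 70 lower against Fibroblast 2. Without each sample in turn these counts were 121 to 134, 61 to 67, 229 to 245 and 120 to 134. Of 2124 alternative values of the log2 differences of named genes, 2103 stayed within 1 SD and 21 moved. A change of sign was recorded only for genes counted against that neighbour, and there were 0. Uncounted genes near 0 could change sign without being recorded. The share among Fibroblast cells was 2.52 to 3.83 points without each sample. As a share of sub-cluster 3 the difference was -1.20 points, and -3.15 to 1.35 without each sample, above 0 without ko/ko replicate 1. The genotype difference of the score was -0.03, and -0.05 to -0.02 without each sample. The share of cells in the score gap, with alternatives chosen after seeing the data, differed by -25.6 points, by -27.9 to -23.0 without each sample, by -21.2 without thinning and by -18.7 with cells thinned to 2000 UMIs. Genotype calls numbered 48, and 40 with edgeR, 92 with DESeq2, 137 without a filter on low counts and 0 to 108 without each sample in turn. Same-numbered samples did not deviate together, so the numbers are not a pairing: with the replicate block 67 genes were called, and the share and the score differed by 3.03 points (exact permutation p = 0.25) and -0.03 (exact permutation p = 0.5). Interaction calls against Fibroblast sub-cluster 1 numbered 2, and 5 with edgeR, 0 without a filter (voom-limma, 2047 genes at an unadjusted p under 0.05) and 2 to 7 without each sample. Those against Fibroblast 2 numbered 3, and 5 with edgeR, 2 without a filter and 4 to 11 without each sample. Of 264 alternative values of the genotype effects of named genes, 210 kept their direction and their side of the threshold, 46 were no longer called and 8 changed sign. Uncalled genes near 0 changed sign: Dcn with batch as a term (-0.016) and without a sample (-0.044 to 0.064), Mgp with RLE factors (0.000658), without the cells of highest UMIs (0.037) and without a sample (-0.15 to 0.18), and Top2a without a sample (-0.063 to 0.38). The cause of these changes was not tested.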

Other observations

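The 6 genes that follow were further ones above both neighbours, chosen after their values were seen. Adm, the vasodilator adrenomedullin, was at 775 CPM ± 71.2 (SD, n = 6), against 356 CPM ± 20.2 in Fibroblast sub-cluster 1 and 386 CPM ± 35.1 in Fibroblast 2. P2ry14, a receptor of nucleotide sugars, was at 149 CPM ± 22.9 against 34.3 CPM ± 5.80 and 63.3 CPM ± 8.52. Pla1a, a phospholipase of phosphatidylserine, was at 130 CPM ± 13.1 against 24.7 CPM ± 3.24 and 62.9 CPM ± 10.4. Gpc3, the heparan sulfate proteoglycan glypican 3, was at 46.2 CPM ± 7.90 against 7.47 CPM ± 1.31 and 21.8 CPM ± 4.08. Lbp, which carries bacterial lipopolysaccharide, was at 40.0 CPM ± 5.14 against 14.3 CPM ± 3.03 and 17.1 CPM ± 2.33. Mylk, the kinase of myosin light chains, was at 317 CPM ± 35.6 against 158 CPM ± 31.1 and 98.6 CPM ± 19.7. These differences are levels without a test, since the populations were formed from the same cells.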
